A study of Homo sapiens with 24 samples.

Results

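Splicing factors and RNA helicases are the genes that read, cut and remodel RNA, and their own messenger RNAs were followed here through total RNA and through the ribosome gradient. They were chosen by gene name from the catalog probes of the array, that is, the commercial probes against annotated genes: names of the SRSF or SFRS, HNRNP, SNRP, LSM, SF3, U2AF, PRPF, RBM, DDX and DHX series, and of the CLK and SRPK kinases. The rule took 100 genes of 15102 gene names on catalog probes, read by 124 probes out of 61537 on the array, of which 17535 are catalog probes and 44002 are custom probes to long noncoding RNAs. The gene names are those of the array design, and the accessions behind 119 of the 124 probes still carry the same symbol in RefSeq, while DDX58 is now RIGI and PRPF4B is now PRP4K. Probes to SNRPB2 and SNRPC, 1 each, carried an outlier mark from the scanner and were left out, which left 122 probes.

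The spliceosome assembles on each intron from small nuclear ribonucleoproteins, whose rings are built from Sm or LSm proteins, and from protein complexes such as SF3A, SF3B, U2AF and the PRPF factors. SR proteins bind exons and mostly favour splicing, hnRNP proteins coat nascent transcripts and often oppose it, and CLK and SRPK kinases phosphorylate SR proteins and so set where they reside. DEAD-box and DEAH-box helicases use ATP to rearrange RNA and RNA-protein contacts, in the nucleus as in splicing and in the cytoplasm as in translation initiation. Several genes of these families, SR and hnRNP genes among them, are known for alternative exons or retained introns in their own transcripts.

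MRC5 cells, a fibroblast line from human lung, were left untreated (control) or given 0.2 mM H2O2 for 2 hours (oxidative stress, OS). All cells received cycloheximide, which holds ribosomes on messenger RNA, before lysis. Total RNA came from whole-cell extracts, and the gradient was loaded with lysate cleared by a spin, so a difference between total RNA and the pools cannot be told apart from a difference between these preparations or from RNA held in the nucleus. The 23 gradient fractions were joined into 3 pools, called untranslated (fractions 1 to 9, free ribonucleoproteins and single ribosomes), low (10 to 14, few ribosomes) and high (15 to 23, many ribosomes). With 2 conditions and 4 kinds of RNA there were 8 groups of 3 arrays, 24 in all, hybridised in 1 colour. Per the series' design the gradient was run 3 times on separate RNA preparations, so the 3 pools of a run share a preparation and are not independent of each other. An equal mass of RNA was labelled from every sample, from the poly(A) end, so a value is the share of a messenger among the RNA of its own sample, and pools do not add up to the total. In bulk RNA, fewer cells holding a transcript and less of it per cell cannot be told apart. The fibroblast markers COL1A1, COL3A1, LUM and THY1 were above background on all 24 arrays. Among markers of other cell types, the ALB probe was above background on 5 arrays, EPCAM on 8 and CDH5 on 20, and the 3 PTPRC probes were above background on 23, 1 and 1 arrays.

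The array of the OS low pool, replicate 3, stood apart from the others. On it 95.4% of catalog probes and 99.2% of the splicing and helicase probes were well above background, against 43.4% to 67.7% and 77.9% to 95.1% on the other 23 arrays. Of the comparisons below only the last uses the OS low pool, but this array also enters the estimate of the spread that all comparisons share, so the counts are given with and without it. Of the 122 probes, 89 were above background on all 24 arrays, 115 passed background throughout at least 1 group of arrays, and 7 did so in no group, namely the only probes of DDX25, HNRNPKP3, RBM20, RBM44 and SF3B2, 1 of 3 HNRNPK probes and 1 of 2 SNRPD3 probes. No probe of the 122 was saturated on any array.

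Each value comes from a probe of 60 letters, so a gene is read at 1 place only, and where a gene has several probes they can read different transcripts. Of the 124 probes, 13 (10.5%) map to a stretch of genome longer than the probe and therefore cross an exon junction, against 6.89% of the 17437 catalog probes with a position. The first 30 letters of the probes on which the results below turn are shown here, in lower case, with their positions in GRCh37 and the strand of the transcript. CLK1, PRPF8 and DDX17, each called in a comparison of OS with control, come first.
CLK1, chr2:201725962-201726021, minus strand: aagtagttataaaagcaaacacaggattca
PRPF8, chr17:1554479-1554538, minus strand: ccagaacacagacaagggcaacaaccccaa
DDX17, chr22:38888104-38889757, minus strand, across a junction: catggagacaagagtcaaccagaaagagat

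RBM10 and HNRNPA1 each have 2 probes that gave opposite results along the gradient, and the HNRNPA1 and HNRNPA1L2 probes are called first and second by their order along the transcript. Both probes of RBM10, which start 8710 bases apart, and the second of HNRNPA1 are shown. Capitals mark letters that lie in a run of at least 16 letters shared with another probe of the array on either strand.
RBM10, chrX:47045914-47045973, plus strand, coding messenger probe: cagctcctacggggtcacctcaaccgagtc
RBM10, chrX:47037204-47037263, plus strand, cDNA clone probe: cagggtttcgtcaTGTTTGCCAGGCTGGTC
HNRNPA1, chr12:54678778-54678837, plus strand, second probe: cctgcttgggtggagaagccattgtctttg
The cDNA clone probe of RBM10 shared such a run with 2 other probes on the same strand and 6 on the opposite strand, and the coding messenger probe with none. The first HNRNPA1 probe shared a run with 1 probe to the opposite strand, and the first HNRNPA1L2 probe with 2 other probes on the same strand. HNRNPA1L2 is a gene copied from HNRNPA1. HNRNPA1, HNRNPA1L2 and HNRNPCL1 belong to sets of near-identical copies, so signal of the other copies in their probes was not tested and their values are uncertain as to gene.

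The first comparison asks where these messengers lie along the gradient in untreated cells. Most made up a larger share of the high pool than of the untranslated pool. Of 109 probes tested, 70 (64.2%) were higher in the high than in the untranslated pool and 23 (21.1%) were lower. Among the 9880 probes of the catalog tested, 42.2% were higher and 31% lower. All values are log2 signals after quantile normalization, all adjusted p values are from limma over all probes tested, and a probe was called at an adjusted p under 0.05. The median difference was 1.16 over these probes and 0.35 over the catalog. With the deviating array left out, 78 were higher and 24 lower, against 47.4% and 34.7% of the catalog. A probe could be tested through either pool alone. Called higher though above background on no control untranslated array were DDX51, LSM14B, DHX34, HNRNPCL1, SRSF1 and DDX60L. So were a probe of RBM33 and a probe of DDX31. When both pools had to pass background, the catalog gave 2812 higher and 2867 lower, with a median of 0.0019. The matching counts for the splicing and helicase probes are not given here. Among probes above background on every control pool array, the high pool had the highest mean for 66 of 94 splicing and helicase probes (70.2%). The share was 39.9% of 7217 catalog probes. The untranslated pool was highest for 18.1% and 34.2%. That reading ranks pool means and is not a test. The families differed in direction, as the plot of all tested probes by family shows.

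**Figure D1:**
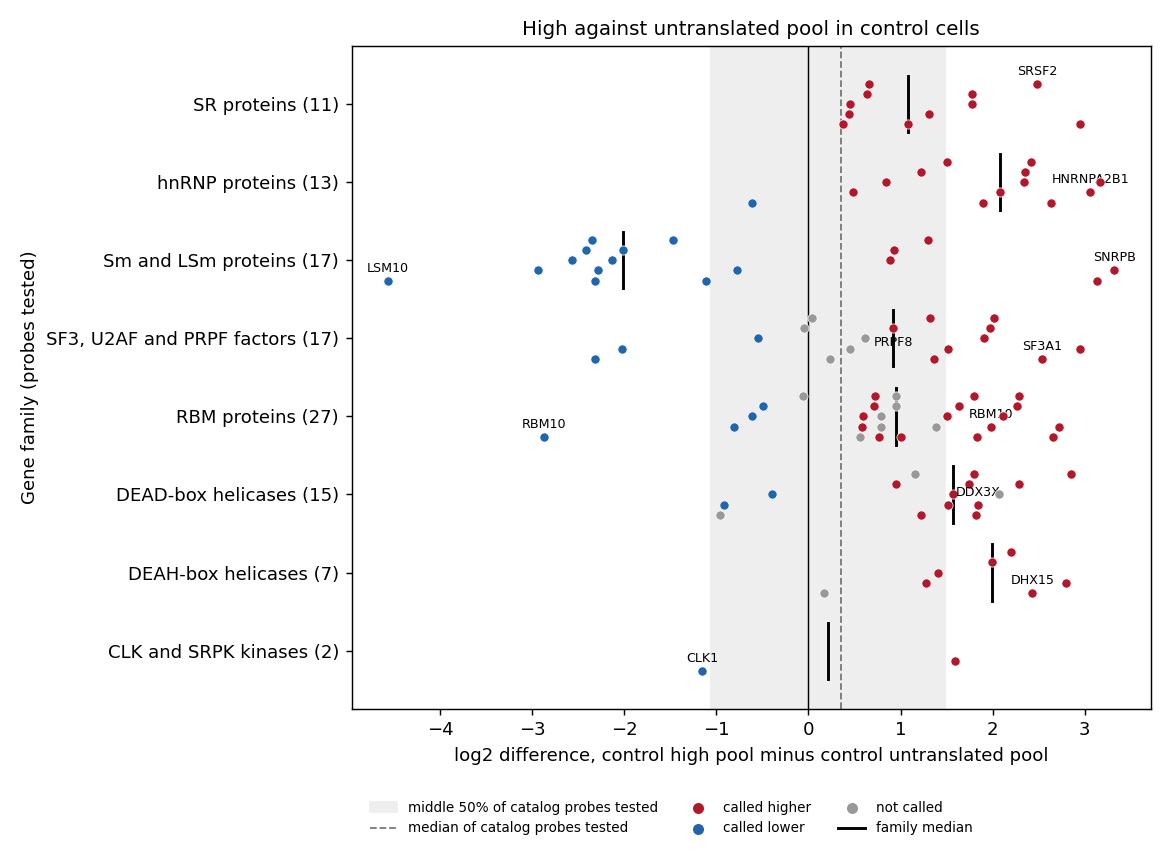
Each point is 1 probe tested, placed by its log2 difference between the control high and the control untranslated pool (n = 3 arrays each) and by gene family, with the call by colour, the family median as a black bar and the catalog's median and middle range in grey. All 11 SR protein probes lie to the right of 0 and 12 of 17 Sm and LSm probes lie to the left.

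SR proteins were higher in the high pool for 11 of 11 probes tested, with a median of 1.08. SRSF2, which binds exonic enhancers, was measured by 2 probes. Its first probe read 12.19, 12.21 and 12.15 in the control untranslated pool and 14.61, 14.63 and 14.77 in the high pool. All 3 high pool arrays lay above all 3 untranslated arrays, by 5.60-fold (log2 difference 2.48 ± 0.13 (SE), adjusted p = 9.6e-12). The second SRSF2 probe, 1631 bases away, differed by 1.08 ± 0.12 (SE), adjusted p = 2.1e-07. SRSF7, an SR protein that also takes part in messenger export, was 3.43-fold higher (log2 difference 1.78 ± 0.13 (SE), adjusted p = 1.2e-09). SRSF10, which represses splicing when dephosphorylated, was 2.47-fold higher (adjusted p = 0.0058). SRSF1, the founding SR protein, was not well above background on any untranslated array and was above it on all 3 high pool arrays, which makes it at least 2.27-fold higher (adjusted p = 0.0047), the dim side being set to the lowest signal measured above background on each array. The smallest difference was that of SRSF5, 0.38 by 1 probe (adjusted p = 0.033) and 0.44 by the other (adjusted p = 0.009). These 2 probes share 46 letters and are no independent readings. The call of the first SRSF5 probe was lost without control high replicate 2 or 3 or control untranslated replicate 3 (adjusted p = 0.11, 0.079 and 0.14), and that of the second without control high replicate 3 (adjusted p = 0.0501). With SRSF11, whose 2 probes differed by 0.45 and 0.65, the call was lost on both probes without replicate 2 or 3 of either pool, with adjusted p from 0.0509 to 0.18.

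hnRNP proteins followed the same order, with 12 of 13 probes higher, 1 lower and a median of 2.08. HNRNPA2B1, a core hnRNP protein that also guides RNA transport, read 12.21, 12.47 and 12.46 in the untranslated pool and 15.49, 15.34 and 15.49 in the high pool of control cells. The pools did not overlap, and the difference was 8.33-fold (log2 difference 3.06 ± 0.20 (SE), adjusted p = 1.9e-10). HNRNPK, a poly(C) binding protein, was 5.36-fold and 6.21-fold higher by its 2 tested probes (adjusted p = 6.4e-11 and 4.9e-11). HNRNPU, a nuclear scaffold protein, was 5.11-fold higher (adjusted p = 1.9e-05) and HNRNPH1, a binder of G-rich sites, 3.72-fold higher (adjusted p = 4.2e-12). HNRNPCL1 was not well above background on any untranslated array and was at least 1.92-fold higher in the high pool (adjusted p = 2.0e-07). HNRNPA1, which represses many exons, split by probe. Its second probe, shown above, was higher in the high pool by 1.50 ± 0.12 (SE), adjusted p = 3.7e-09, whereas the first was lower by 0.62 ± 0.25 (SE), adjusted p = 0.038. The call of the first probe was lost without control untranslated replicate 3, where the log2 difference was -0.38 (adjusted p = 0.22), and without control high replicate 1, 2 or 3 (adjusted p = 0.081, 0.058 and 0.092). Its sign turned with the scaling, to 0.016 when all probes were normalized together and to 1.15 when arrays were scaled to the 75th percentile.

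The Sm and LSm proteins, a family formed here by the SNRP and LSM names, ran the other way. Of 17 probes, 12 were lower in the high pool and 5 higher, with a median of -2.01. LSM10, a ring protein of the U7 particle that processes histone messengers, had the largest difference of all probes tested in these families. It read 14.28, 14.31 and 14.28 in the untranslated pool, 11.91, 11.59 and 12.04 in the low pool and 9.70, 9.87 and 9.59 in the high pool of control cells. The pools fell in steps without overlap, and the high pool was 23.7-fold below the untranslated pool (log2 difference -4.57 ± 0.14 (SE), adjusted p = 2.2e-14). SNRPG, an Sm ring protein, was 7.64-fold lower (adjusted p = 1.1e-12), and SNRPD1, SNRPD2, SNRPD3 and both probes of SNRPE, further members of that ring, were also lower, by 2.15-fold to 5.91-fold. LSM1, which binds the end of messengers before decapping, was 5.08-fold lower (adjusted p = 9.1e-13), and LSM2, shared by the nuclear and cytoplasmic LSm rings, 4.38-fold lower (adjusted p = 4.8e-11). SNRPN, a close relative of SNRPB expressed from the paternal chromosome, was 2.77-fold lower (adjusted p = 7.8e-10). Its difference turned to 0.23 under scaling to the 75th percentile, while the catalog median under that scaling was 1.64, so it stayed below the catalog.

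SNRPB itself, the Sm ring protein that sits beside these, went against its family. It read 11.08, 10.98 and 11.15 in the untranslated pool, 12.68, 12.78 and 12.58 in the low pool and 14.44, 14.33 and 14.41 in the high pool. The pools rose in steps without overlap, and the high pool was 9.99-fold above the untranslated pool (log2 difference 3.32 ± 0.13 (SE), adjusted p = 2.5e-13). The other 4 probes of this family that were higher belonged to SNRPA of the U1 particle, SNRPA1 and SNRPB2 of the U2 particle, and LSM14B, a processing body protein. These 4 are in the family by name and are no ring subunits. LSM14B was not well above background on any untranslated array and was at least 1.21-fold higher (adjusted p = 1.5e-06).

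Among the SF3, U2AF and PRPF factors, 9 of 17 probes were higher in the high pool and 3 were lower, with a median of 0.92. U2AF2 and U2AF1, the large and small subunits that find the 3' splice site, were 7.73-fold (adjusted p = 1.9e-12) and 2.85-fold higher (adjusted p = 2.1e-05). SF3A1, of the U2 particle, was 5.79-fold higher (adjusted p = 4.0e-12). PRPF8, the scaffold of the spliceosome's active site, was 1.89-fold higher (adjusted p = 0.00079). Lower were SF3A2, a further SF3A subunit, and 1 probe each of PRPF18 and PRPF4B. PRPF18 had probes 38683 bases apart that were called in opposite directions, at 1.33 and -2.32.

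RBM proteins, named for an RNA recognition motif and diverse in role, were higher for 16 of 27 probes and lower for 4, with a median of 0.95. RBM25 and RBM39, both splicing regulators, were 1.64-fold (adjusted p = 3.6e-05) and 1.71-fold higher (adjusted p = 5.1e-05). RBM3, a cold-induced protein, was lower by 0.49 ± 0.14 (SE), adjusted p = 0.006, and peaked in the low pool at 12.70 ± 0.057 (SD, n = 3). Its sign turned to 0.051 with all probes normalized together and to 1.24 under scaling to the 75th percentile, where the catalog medians were 1.06 and 1.64. RBM10, which controls exon skipping, read 11.17, 11.03 and 11.25 in the untranslated and 13.29, 13.08 and 13.01 in the high pool by its coding messenger probe. By the cDNA clone probe it read 11.76, 11.68 and 11.95 in the untranslated and 8.90, 8.82 and 9.04 in the high pool. The first probe was 3.94-fold higher and the second 7.35-fold lower (adjusted p = 3.7e-10 and 3.4e-09), and neither set of arrays overlapped.

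DEAD-box helicases were higher for 10 of 15 probes and lower for 2, with a median of 1.57. DEAH-box helicases were higher for 6 of 7 and lower for none, with a median of 1.99. DHX34, among these 6, was above background on no control untranslated array. With its dim side set to the lowest signal above background, no increase remained. DDX3X, which unwinds structured leaders during translation initiation, was 3.60-fold higher (adjusted p = 5.5e-10), and DDX17, a coregulator of splicing and transcription, 2.97-fold higher (adjusted p = 3.5e-05). DHX15, which takes spent spliceosomes apart, was 5.40-fold higher (adjusted p = 7.0e-11). DDX51, a helicase of ribosome assembly, was not well above background on any untranslated array and was at least 5.43-fold higher in the high pool (adjusted p = 0.0026). The 2 DEAD-box probes that were lower belonged to DDX31 and DDX55, both helicases of ribosome assembly. DDX31 has a second probe with the opposite call. That probe was not well above background on any untranslated array and was at least 1.18-fold higher in the high pool (adjusted p = 0.041). Of the kinases, SRPK2 was higher by 1.59 (adjusted p = 0.045), a call lost without control untranslated replicate 1 or 2 or any control high array, with adjusted p from 0.081 to 0.13, and with the replicate block (adjusted p = 0.052). CLK1 was lower and is described below.

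Family directions held under each scaling tried when read against the catalog median, apart from the 2 kinases. Quantile normalization over all probes together and scaling to the 75th percentile moved the catalog median of this comparison to 1.06 and 1.64, from 0.35. Relative to it, the Sm and LSm median stayed between -2.58 and -1.63 and the hnRNP median between 1.57 and 2.00. SRSF5 on both probes and SRSF11 on 1 lay within 0.31 of the catalog median under every scaling and changed side of it. The second HNRNPA1 probe also changed side, to -0.11 relative to the median under scaling to the 75th percentile.

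By pool, 94 probes were above background on all 9 pool arrays of control cells, and the high pool had the highest mean for 66 (70.2%) of them, the untranslated pool for 17 and the low pool for 11. Over 7217 catalog probes read the same way, the high pool was highest for 39.9%. All 6 DEAH-box probes and 11 of 12 hnRNP probes peaked in the high pool, whereas the 15 Sm and LSm probes were spread over the untranslated pool (5), the low pool (6) and the high pool (4). In OS, 91 probes could be read, and 66 (72.5%) peaked in the high pool, or 65 without the deviating array. The catalog's shares were 43.7% and 41.3%. Of the 15 Sm and LSm probes, 9 then peaked in the low pool, with and without that array, and 2 in the untranslated pool. In the catalog the low pool was highest for 23.3%, or 28% without that array.

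The second comparison asks whether this distribution changed with OS, by subtracting the difference between high and untranslated pool in control cells from that in OS cells. A positive value is a shift of the messenger's relative share toward many ribosomes. Of 112 probes tested, 10 shifted up (8.93%) and 9 shifted down (8.04%), against 8.04% and 8.03% of 10369 catalog probes, so the share called was near that of the catalog. The median was 0.07 against 0.02. Leaving out the deviating array, 19 shifted up and 22 down, against 16.7% and 14.4% of the catalog. Without control high replicate 2, or without OS untranslated replicate 3, the number shifted down was 5. The values are given by family below and in the plot of the shift by family.

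**Figure D2:**
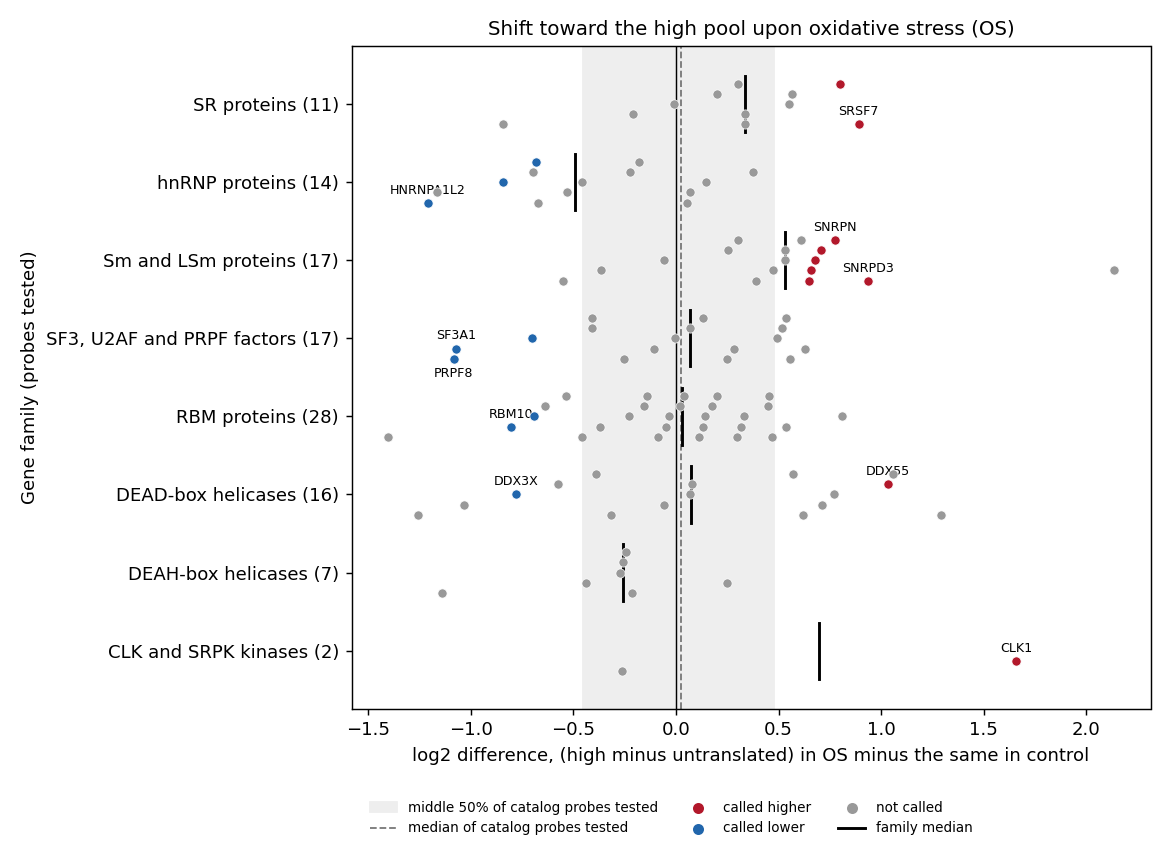
Each point is 1 probe tested, placed by its shift toward the high pool upon OS on the log2 scale and by gene family, with the call by colour, the family median as a black bar and the catalog's median and middle range in grey. The 6 Sm and LSm probes called lie to the right, and the 3 hnRNP probes called lie to the left.

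CLK1, a kinase of SR proteins, had the largest shift among called probes and the only call in its family. In control cells it read 9.58, 9.60 and 9.49 in the untranslated pool, 9.34, 9.23 and 9.30 in the low pool and 8.44, 8.45 and 8.32 in the high pool. In OS cells it read 9.90, 9.58 and 9.49 in the untranslated pool, 9.91, 9.90 and 9.38 in the low pool, where the last array is the deviating one, and 10.30, 10.05 and 10.15 in the high pool. The order of the pools turned over: the high pool was the lowest in control cells and the highest in OS, and the 3 OS high arrays lay above every control array of any pool. The shift was 1.66 ± 0.21 (SE), adjusted p = 6.6e-05, and 1.70 without the deviating array (adjusted p = 1.7e-06). In control cells the high pool was 2.23-fold below the untranslated pool (log2 difference -1.16 ± 0.14 (SE), adjusted p = 1.0e-06), a difference whose sign turned to 0.43 under scaling to the 75th percentile, where the catalog median was 1.64. Its call was also lost with all probes normalized together (-0.33, adjusted p = 0.15) and with the deposited table, so the order of the pools in control cells depends on the scaling.

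The Sm and LSm proteins shifted up for 6 of 17 probes and down for none, with a family median of 0.53. When the deviating array was left out, 7 shifted up and 1 down. SNRPD3 read 12.27, 11.91 and 11.97 in the untranslated pool of control cells and 11.39, 11.39 and 11.51 in that of OS cells. In the high pool it read 10.84, 10.88 and 11.12 in control and 11.03, 11.56 and 11.19 in OS cells. The untranslated arrays of OS all lay below those of control, while the high arrays overlapped, and the shift was 0.94 ± 0.22 (SE), adjusted p = 0.011. SNRPN shifted by 0.77 ± 0.16 (SE), adjusted p = 0.0043. LSM1 shifted by 0.66 ± 0.15 (SE), adjusted p = 0.0099, from 14.74 ± 0.061 to 14.37 ± 0.05 (SD, n = 3) in the untranslated pool. SNRPD1, SNRPG and 1 probe of SNRPE shifted by 0.65 to 0.71. These genes remained lower in the high than in the untranslated pool in OS by their group means. In total RNA none of the 17 probes was called.

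SR proteins shifted up for 2 of 11 probes and down for none, with a median of 0.34. SRSF7 read 12.07, 12.05 and 12.10 in the control and 11.69, 11.25 and 11.62 in the OS untranslated pool. In the high pool it read 13.67, 13.93 and 13.96 in control and 14.25, 14.11 and 14.21 in OS cells. Both pools separated the conditions without overlap, in opposite directions, and the shift was 0.89 ± 0.19 (SE), adjusted p = 0.0066. SRSF5 shifted by 0.80 ± 0.21 (SE), adjusted p = 0.021 on 1 of its overlapping probes, a call lost when replicate 1 or 2 of the control untranslated pool, control high replicate 1, OS high replicate 2 or OS untranslated replicate 2 or 3 was left out (adjusted p from 0.051 to 0.065). Without the deviating array, 4 SR probes shifted up.

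hnRNP proteins shifted down for 3 of 14 probes and up for none, with a median of -0.49, and without the deviating array for 6. All 3 belonged to HNRNPA1 and its copy HNRNPA1L2. The second HNRNPA1L2 probe read 14.70, 14.49 and 14.71 in the control and 15.05, 15.20 and 15.18 in the OS untranslated pool. In the high pool it read 15.96, 15.71 and 15.88 in control and 15.14, 15.24 and 15.07 in OS cells. Both pools separated the conditions, with OS above control in the untranslated pool and below it in the high pool. The shift was -1.21 ± 0.19 (SE), adjusted p = 0.00053, and that of the other probe -0.84 ± 0.17 (SE), adjusted p = 0.0039. The second HNRNPA1 probe shifted by -0.68 ± 0.18 (SE), adjusted p = 0.019, a call lost without control untranslated replicate 2, control high replicate 2, OS untranslated replicate 3 or OS high replicate 3 (adjusted p from 0.051 to 0.062).

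SF3, U2AF and PRPF factors shifted down for 3 of 17 probes, namely SF3A1, PRPF8 and PRPF6. SF3A1 read 8.95, 8.88 and 8.84 in the control and 9.65, 9.83 and 9.76 in the OS untranslated pool. In the high pool it read 11.61, 11.42 and 11.24 in control and 11.29, 11.13 and 11.21 in OS cells. The untranslated pools did not overlap, the high pools did, and the shift was -1.07 ± 0.18 (SE), adjusted p = 0.0012. PRPF8 shifted by -1.08 ± 0.30 (SE), adjusted p = 0.025, a call lost without replicate 1 or 2 of the control untranslated pool, replicate 1 or 2 of the control high pool, OS untranslated replicate 2 or 3 or OS high replicate 2 (adjusted p from 0.051 to 0.081). PRPF6, which bridges parts of the tri-snRNP, shifted by -0.70 ± 0.21 (SE), adjusted p = 0.042. RBM proteins shifted down for 2 of 28 probes (7.14%), a share below the catalog's 8.03%. RBM10 did so on its coding messenger probe (-0.80 ± 0.20 (SE), adjusted p = 0.015), with the untranslated pool moving from 11.15 ± 0.11 to 11.99 ± 0.049 (SD, n = 3) and the high pool at 13.13 ± 0.14 and 13.16 ± 0.16. RBM19, a ribosome assembly factor, shifted by -0.69 ± 0.19 (SE), adjusted p = 0.026.

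Helicases shifted little as families, with 1 up and 1 down among 16 DEAD-box probes and none called by limma among 7 DEAH-box probes, of which 0 rose and 1 fell at an unadjusted p under 0.05. Without the deviating array 1 DEAH-box probe was called down. DDX3X shifted down by 0.78 ± 0.19 (SE), adjusted p = 0.013. It read 10.15, 9.98 and 9.95 in the control and 10.63, 10.85 and 10.69 in the OS untranslated pool, without overlap, while its high pool arrays overlapped at 11.87 ± 0.11 and 11.79 ± 0.12 (SD, n = 3). DDX55 shifted up by 1.03 ± 0.16 (SE), adjusted p = 0.00046. It read 9.90, 9.99 and 10.02 in the control and 8.82, 8.64 and 9.05 in the OS untranslated pool, while its high pools overlapped. The per-array values of CLK1, DDX55, SNRPD3, SRSF7, HNRNPA1L2 and SF3A1 are drawn in the plot of genes that shifted.

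**Figure D3:**
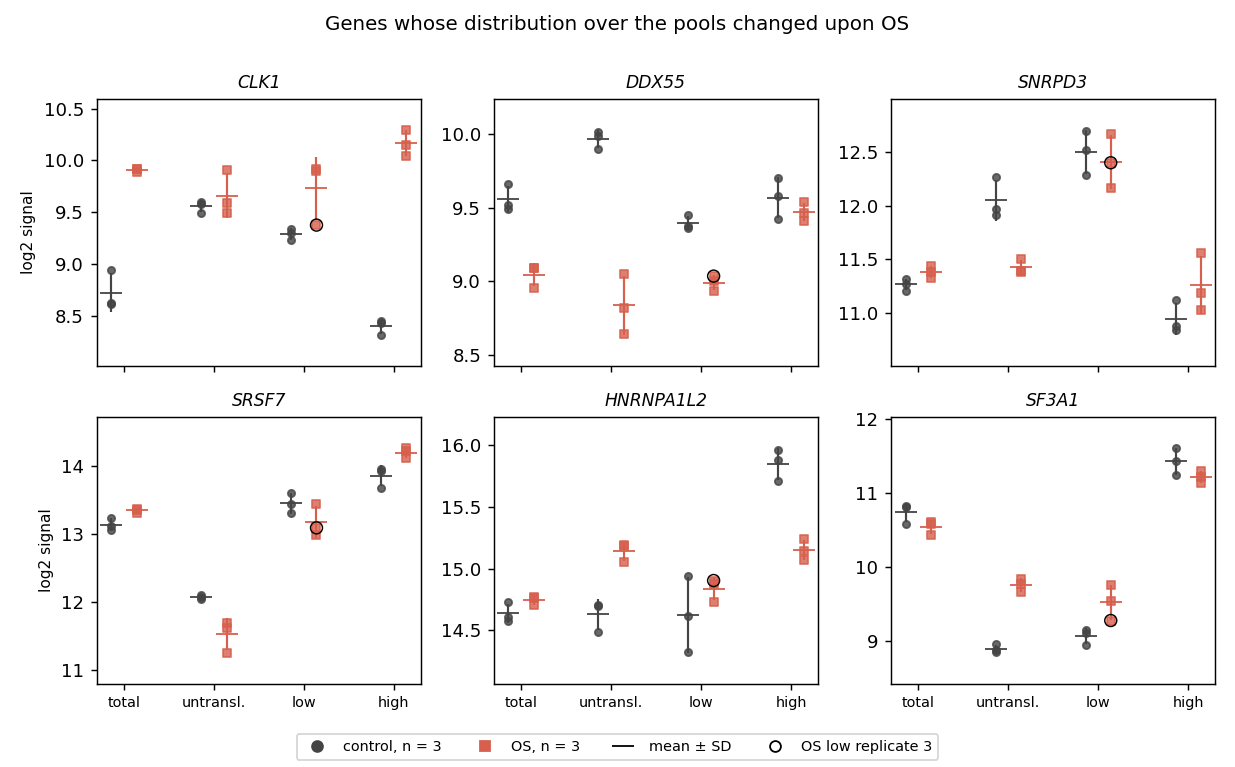
Each panel gives the log2 signal of 1 gene on every array, by kind of RNA (total, untranslated, low and high pool), for control (grey circles) and OS (red squares), with the mean and SD of n = 3 and a ring around the deviating OS low array. CLK1 is the lowest in the high pool of control cells and the highest there in OS.

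With scaling to the 75th percentile, none of the probes was called in either direction in this comparison (0 and 0), and with the deviating array also left out, 4 shifted up and 10 down. In that scaling only 8 catalog probes were called up and 6 down with all arrays. For the 13 genes followed through every alternative, CLK1, DDX55, DDX3X, SNRPD3, SNRPN, LSM1, SRSF5, SRSF7, HNRNPA1, HNRNPA1L2, SF3A1, PRPF8 and RBM10, the sign of the shift held in each. They were picked from the calls of this comparison, and the alternatives reuse the same arrays, so a kept sign is no separate evidence.

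The third comparison asks what OS did to these genes in total RNA. Few changed: of 113 probes tested, 1 was higher and 2 were lower, against 3.07% higher and 3.06% lower of 10630 catalog probes. The median was -0.027 against -0.018 in the catalog. Without the deviating array 1 was higher and 5 were lower, against 5.67% and 7.71% of the catalog. Fitting only the total RNA arrays gave 4 higher and 15 lower, against 939 and 1707 of the 10630 catalog probes, so the members stayed below the catalog's shares. The ALB probe, a liver marker, was not well above background on any control total RNA array and was above it on all 3 OS total RNA arrays, at a mean of 6.06 (adjusted p = 0.00025). EPCAM was above background on 0 control and 2 OS total RNA arrays, and CDH5 on 3 and 3. The part of other cells in the changes below was not tested. Within families, none of the 11 SR, 14 hnRNP, 17 Sm and LSm, 18 SF3, U2AF and PRPF, 28 RBM and 7 DEAH-box probes was called by limma on all 24 arrays, and without the deviating array 3 RBM probes were lower.

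CLK1 rose in total RNA. The control arrays read 8.94, 8.61 and 8.62 and the OS arrays 9.89, 9.92 and 9.92, with no overlap. The difference was 2.27-fold (log2 difference 1.19 ± 0.15 (SE), adjusted p = 2.2e-05). The call was lost under scaling to the 75th percentile, where the adjusted p was 0.33, and the difference lay between 0.94 and 1.30 over all 19 alternatives. DDX17 fell, from 11.94, 11.70 and 11.86 on the control arrays to 10.67, 10.81 and 10.50 on the OS arrays. The groups did not overlap, and the fall was 2.26-fold (log2 difference -1.17 ± 0.26 (SE), adjusted p = 0.0067). DDX55 fell by 0.51 ± 0.11 on the log2 scale (SE), adjusted p = 0.0065, from 9.66, 9.49 and 9.52 to 8.96, 9.09 and 9.09.

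The fourth comparison sets total RNA of control cells against the mean of the 3 pools. The mean is of log2 values, each pool with equal weight. A messenger concentrated in 1 pool can therefore exceed it and still lie below that pool. Of 114 probes tested, 26 were higher in total RNA (22.8%) and 19 were lower (16.7%), against 20.2% and 19.7% of 10821 catalog probes, with a median of 0.19 against -0.10. Without the deviating array 35 were higher and 24 lower, against 26.6% and 30.3% of the catalog. Without control total replicate 2, 11 were lower. Scaling to the 75th percentile gave 11 and 3, against 1289 and 375 in the catalog, and that scaling without the deviating array gave 26 and 22, against 2478 and 2880. As an example of an RNA that stays in the nucleus, MALAT1 was higher in total RNA than in the mean of the pools (adjusted p = 8.4e-07). Its means were 11.28 in total RNA and 6.34 in the low pool. It was above background on all 3 arrays of both, but on only 1 untranslated and 2 high pool arrays, so the size of its difference from the mean of the pools was not measured. The part of nuclear RNA in the values below was not tested. The spread over probes is drawn in the plot of total RNA against the pools.

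RBM14, a nuclear body protein and transcription coactivator, was read by 2 probes 1919 bases apart. The probe with the higher difference was above background on all 3 total RNA arrays, at 7.03, 6.82 and 7.41, and on no control pool array. Total RNA was at least 1.33-fold, 4.38-fold and 3.48-fold above the untranslated, low and high pools by that probe, pairs that were not tested alone. Against the mean of the 3 pools its adjusted p was 1.0e-09 by limma, with pool values that did not pass background. By the other probe, RBM14 was above background in every group and differed by 0.34 ± 0.13 (SE), adjusted p = 0.058, which was not called.

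DDX17 was above background on every control array. It read 11.94, 11.70 and 11.86 in control total RNA, 7.82, 6.84 and 7.34 in the untranslated pool, 7.74 ± 0.36 (SD, n = 3) in the low pool and 8.83, 9.02 and 8.86 in the high pool. Every total RNA array lay above every pool array, and total RNA exceeded the mean of the pools by 14.3-fold (log2 difference 3.84 ± 0.21 (SE), adjusted p = 8.8e-11). PRPF8 read 12.66, 12.66 and 12.75 in control total RNA and 10.10 ± 0.41, 10.20 ± 0.11 and 11.02 ± 0.30 (SD, n = 3) in the pools, lowest to highest ribosome number. It exceeded the mean of the pools by 4.76-fold (log2 difference 2.25 ± 0.17 (SE), adjusted p = 7.3e-09). HNRNPU exceeded it by 3.00-fold (adjusted p = 0.00047).

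DEAH-box helicases were higher in total RNA for 4 of 7 probes and lower for none, with a median of 0.86. They were DHX15, DHX9, DHX29 and DHX38, at 2.36-fold, 2.25-fold, 2.14-fold and 1.81-fold over the mean of the pools. By group means, DHX9 and DHX29 in total RNA also exceeded every pool. DHX15 and DHX38 did not, at 12.41 and 10.31 in total RNA against 12.59 and 10.79 in the high pool. DHX9 is a nuclear helicase that resolves paired repeats and DHX29 a helicase of translation initiation. SF3, U2AF and PRPF factors were higher for 7 of 18 probes and lower for 2. Sm and LSm proteins were lower for 7 of 17 and higher for 1, SNRPB, with a median of -0.29. SR proteins were higher for none and lower for 2 of 12, SRSF9 and SRSF12. SRSF12 was not well above background on any total RNA array and was at least 1.83-fold higher in the low pool, a pair that was not tested alone. Against the mean of the 3 pools its adjusted p was 0.017, a call lost without control total replicate 2 (adjusted p = 0.096) and with normexp background correction (adjusted p = 0.20).

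The lowest probes relative to the pools were the cDNA clone probe of RBM10, at -1.60 ± 0.19 (SE), adjusted p = 3.1e-06, and the first HNRNPA1 probe, at -1.29 ± 0.21 (SE), adjusted p = 7.7e-05. The coding messenger probe of RBM10 was higher in total RNA (0.43 ± 0.12 (SE), adjusted p = 0.0085), so the 2 probes of this gene were called in opposite directions here too. HNRNPA1 gave -0.39 ± 0.11 (SE), adjusted p = 0.0077 on its second probe, in the same direction as its first. Both HNRNPA1L2 probes were lower as well, by 0.40 and 0.51 on the log2 scale. HNRNPK was higher by 0.58 and 0.64 on its 2 tested probes and HNRNPH1 by 0.50 (adjusted p = 0.00014). CLK1 was lower by 0.36 (adjusted p = 0.031), a call lost without control total replicate 2 or 3 (adjusted p = 0.16 for both) or control low replicate 3 (adjusted p = 0.053). SNRPB was higher by 0.35 (adjusted p = 0.027), and its call was lost without any 1 of the control total arrays or control low replicate 3 (adjusted p from 0.055 to 0.11).

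The last comparison asks whether the difference between total RNA and the mean of the pools changed with OS. Of 115 probes tested, none rose and 3 fell, PRPF8, DDX17 and DHX29, against 0.533% and 2.65% of 11448 catalog probes. With an unadjusted p under 0.05, 4 rose and 9 fell, against 537 and 886 of these catalog probes. With the deviating array left out, none rose and 4 fell (3.48%), against 1.64% and 5.57% of the catalog. The share of the members called was near or below the background in each case. The comparison uses the same total RNA arrays as the comparison of OS and control in total RNA, so the fall of DDX17 is not a separate reading. These 3 genes are drawn with 3 others in the plot of genes in total RNA and in the pools.

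**Figure D4:**
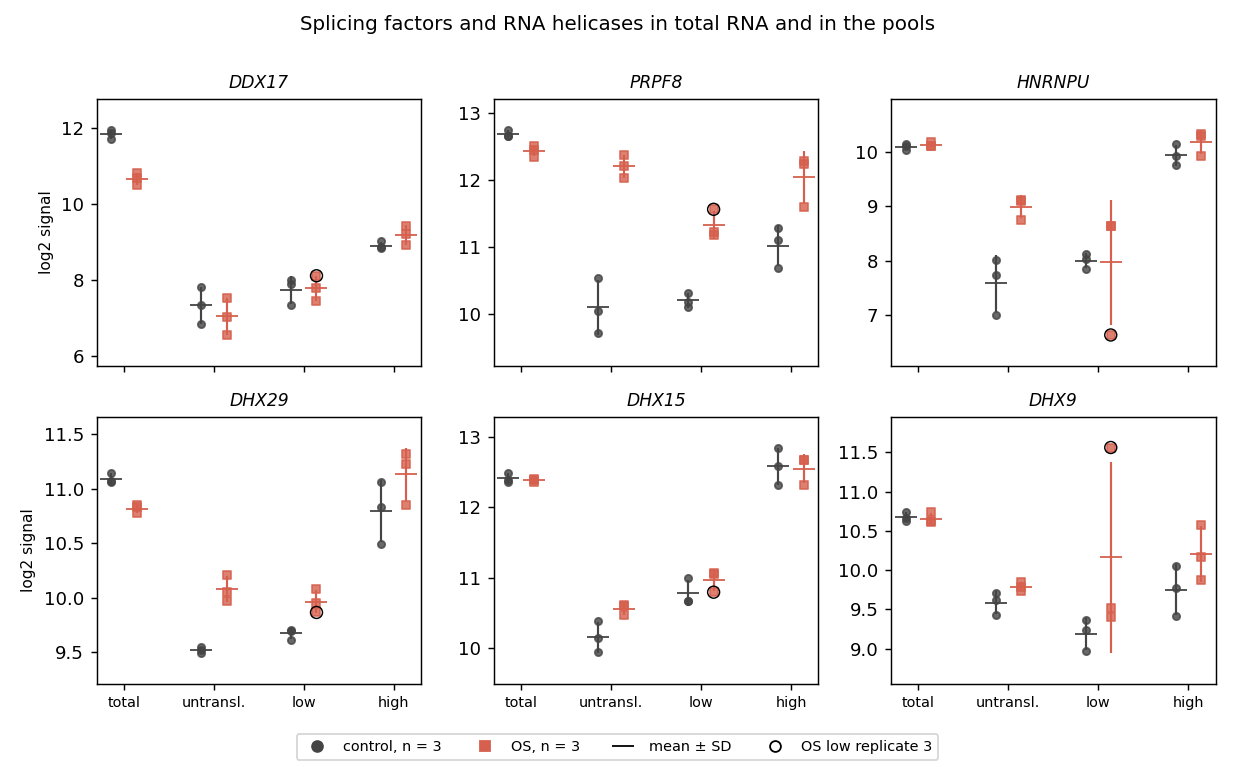
Each panel gives the log2 signal of 1 gene on every array, by kind of RNA, for control (grey circles) and OS (red squares), with the mean and SD of n = 3 and a ring around the deviating OS low array. Total RNA lies far above the pools for DDX17, and the PRPF8 pools move up toward total RNA in OS.

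PRPF8 moved more in the pools than in total RNA. Its untranslated pool read 9.71, 10.04 and 10.54 in control and 12.03, 12.37 and 12.21 in OS, and its low pool 10.31, 10.10 and 10.18 in control and 11.18, 11.23 and 11.56 in OS. Its high pool read 11.27, 11.10 and 10.68 in control and 12.28, 11.59 and 12.24 in OS. In each pool all OS arrays lay above all control arrays. Total RNA read 12.66, 12.66 and 12.75 in control and 12.50, 12.35 and 12.45 in OS. There all OS arrays lay below all control arrays, by -0.26 as a difference of group means, which was not called. The excess of total RNA over the pools fell by 1.67 ± 0.25 on the log2 scale (SE), adjusted p = 0.00034, and by 1.64 without the deviating array (adjusted p = 0.0002). Its untranslated pool rose by 2.10, its low pool by 1.12 and its high pool by 1.02 on the log2 scale. Each is a difference of group means that was not tested by itself.

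DDX17 differed from PRPF8 in where it moved. Its excess fell by 1.19 ± 0.31 on the log2 scale (SE), adjusted p = 0.038, with total RNA down by 1.17 and the untranslated, low and high pools at -0.29, 0.044 and 0.28 as differences of group means, and 2 of 3 OS untranslated arrays above background. DHX29 fell by 0.67 ± 0.17 (SE), adjusted p = 0.032, with total RNA at 11.10 ± 0.048 and 10.82 ± 0.039 and the untranslated pool at 9.52 ± 0.027 and 10.08 ± 0.12 (SD, n = 3) in control and OS. The calls of DDX17 and DHX29 were fragile. Leaving out any 1 total RNA array of either condition ended both, and so did leaving out OS high replicate 3 (adjusted p from 0.053 to 0.13 for these arrays). For DDX17 the call also ended without control untranslated replicate 3, control low replicate 1, control high replicate 1 or 3, OS untranslated replicate 1, OS low replicate 2 or OS high replicate 1, and for DHX29 without control low replicate 2 or OS low replicate 1 (adjusted p from 0.0503 to 0.057).

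Splicing genes outside the naming rule gave a background for these families. They are 54 probes to 44 genes on a list that holds further spliceosome subunits, exon junction proteins and splicing regulators. In the control gradient 28 of 50 were higher in the high pool and 12 lower, with a median of 0.82. EIF4A3, the helicase of the exon junction complex, was higher by 3.36 (adjusted p = 1.7e-12), and the small U2 subunit PHF5A was lower by 3.51 (adjusted p = 4.2e-13). TRA2B, a relative of the SR proteins whose transcript carries a known poison exon, was lower by 3.55 (adjusted p = 1.1e-12). With OS, 7 of 50 shifted up and 3 down, 2 of the latter being probes of NONO, a nuclear DNA and RNA binding protein, at -1.31 and -1.16 (adjusted p = 0.00016 and 0.0012). In total RNA 1 of 51 rose, TRA2B by 0.84 (adjusted p = 0.0023), and 2 fell, 1 probe of SF1 by 2.19 (adjusted p = 2.4e-08) and PTBP3 by 0.45 (adjusted p = 0.025). That probe of SF1, a gene whose protein reads the branch site, was above background on all 6 total RNA arrays and on no pool array, while the other SF1 probe was above background on all 24 and was not called in total RNA (log2 difference -0.056, adjusted p = 0.98). SNRNP200, the helicase partner of PRPF8, exceeded the mean of the control pools by 2.31 (adjusted p = 8.7e-10), and its excess fell by 1.71 with OS (adjusted p = 6.1e-05). Such a fall was not particular to splicing genes. The excess of the fibroblast markers COL1A1 and COL3A1 fell by 1.38 and 1.40 (adjusted p = 6.6e-05 and 0.017), while the change of LUM and THY1 was not called. Of 52 probes, 17 were higher and 10 lower in total RNA than in the pools.

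Where a gene had several probes, these disagreed most along the gradient. Of 16 genes with at least 2 tested probes there, 7 gave the same result on all of them, with a median spread of 1.07 over the 16. Another 5 gave opposite calls, namely RBM10, HNRNPA1, PRPF18, RBM43 and DDX31, of which DDX31 rests on a bound for its higher probe. In the shift none of 17 genes gave opposite calls, with a median spread of 0.25. For 13 of them all probes gave the same result, but only HNRNPA1L2 did so with a call. HNRNPA1, RBM10, SNRPE and SRSF5 were each called on 1 probe and not on the other. In total RNA no probe of the 18 genes was called, so agreement on a change could not be read there.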

How the data were processed

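Cy3 intensities of 24 single-colour Agilent arrays with custom long noncoding RNA probes and catalog probes were used as deposited, read by the authors with Feature Extraction 10.7.3.1, which subtracts the local background (processed signal). The array design's build is GRCh37. A log2 table by the authors, also deposited, equals quantile normalization over all non-control probes (largest difference 0.00145, every column median 4.47) and was used as an alternative. Groups came from the sample labels.

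Here, log2 of the processed intensity was quantile normalized separately for custom and catalog probes, as in the study's methods. The methods also removed arrays that did not cluster with their replicates. Here the deviating array was kept, and leaving it out is an alternative. The 178 probes with an outlier mark and the control spots were left out. limma 3.58.1 in R 4.3.3 fitted 8 group means to 24 arrays. A test needed a probe to pass the scanner's background mark throughout at least 1 group of the contrast. Calls were made at adjusted p under 0.05 (Benjamini-Hochberg, all tested probes of both categories together). All tests are two-sided. The fit was tested on simulated data. The number of arrays limits the precision, and no counting depth applies.

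The gene families, the lists and the genes named were chosen with earlier results of these data known. Named were, per comparison, the 3 most positive and 3 most negative called genes whose groups did not overlap, and genes picked by role. Not every item that the rule names is reported here. Other genes in the text were named after their values were seen. Alternatives were other normalizations and background correction (normexp with offset 50), other filters on dim signal, the replicate number or the slide as a block, the fit without moderation, averaging of control untranslated replicates 1 and 2, which share a number in their labels but differed no less than other pairs (SD of the log2 difference 0.37) and were kept apart, and leaving out each array. Probe letters were compared between all probes of the array, and symbols were matched through RefSeq GRCh38.p14.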

Additional observations from a re-analysis of the deposited data

Results flagged for a closer look

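The shift between pools differed between control and OS cells, by limma's interaction term, for 13 of the genes named. It was upward for CLK1 (log2 difference 1.66), DDX55 (1.03), SNRPD3 (0.94), SRSF7 (0.89), SRSF5 (0.80), SNRPN (0.77) and LSM1 (0.66). It was downward for HNRNPA1L2 (-1.21), PRPF8 (-1.08), SF3A1 (-1.07), RBM10 (-0.80), DDX3X (-0.78) and HNRNPA1 (-0.68). The adjusted p ran from 6.6e-05 for CLK1 to 0.025 for PRPF8. The difference between total RNA and the pools changed with OS, by the same kind of term, for PRPF8 (-1.67), DDX17 (-1.19) and DHX29 (-0.67). No group held enough arrays to test a single array for being far from the others.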

How the results depend on the processing

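Counts below are of splicing and helicase probes called higher and lower. In total RNA, 1 and 2 became 0 and 1 with scaling to the 75th percentile, 1 and 6 with the deviating array also left out (a combination chosen after seeing the data), 1 and 5 without that array alone, and 4 and 15 when only the total RNA arrays were fitted. Along the control gradient, 70 and 23 became 81 and 14 with all probes normalized together or with the deposited table, 91 and 7 with scaling to the 75th percentile and 95 and 11 with the deviating array also left out. The shift, 10 and 9, became 0 and 0 with scaling to the 75th percentile, 4 and 10 with the deviating array also left out, 19 and 22 without that array alone, 5 and 3 with no filter on dim probes, 12 and 16 with a strict one, and 12 and 14 without moderation. Total RNA against the pools, 26 and 19, became 11 and 3 with scaling to the 75th percentile. The change of that difference with OS, 0 and 3, became 0 and 1 with all probes normalized together, with the deposited table or with no filter, 0 and 0 with scaling to the 75th percentile, 0 and 5 with the deviating array also left out, and 2 and 5 without moderation. For each comparison, the arrays of its own groups were also left out 1 at a time. This gave 1 and 2 each time in total RNA, 62 to 69 and 20 to 22 along the gradient, and 7 to 12 and 5 to 11 for the shift. It gave 22 to 28 and 11 to 20 for total RNA against the pools, and 0 and 1 to 4 for its change. Only the range of the change includes the fit without the deviating array. Where a fit without 1 array left a group with a pair of arrays, the spread was taken from all groups.

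The 84 values of named genes and medians gave 1889 values under the alternatives. Of these, 1720 kept direction and call, 149 kept direction without the call, 8 were medians that moved, in total RNA to -0.22 and along the gradient to between 0.92 and 2.63, and 12 changed sign, all along the control gradient. CLK1 went to 0.43 and SNRPN to 0.23 with scaling to the 75th percentile, with and without the deviating array. The first HNRNPA1 probe went to 0.016 with all probes normalized together, 0.017 with the deposited table and 1.15 with scaling to the 75th percentile, and RBM3 to 0.051, 0.054 and 1.24. The last value of each was the same without the deviating array. The catalog moved with these scalings: 4167 higher and 3064 lower along the gradient became 5505 and 2006 with all probes together and 6023 and 948 with scaling to the 75th percentile, and 2186 and 2134 for total RNA against the pools became 1289 and 375. With that scaling and the deviating array left out, the catalog gave 277 up and 932 down for the shift, against 834 and 833, and 432 and 1110 in total RNA, against 326 and 325. Relative to the catalog median, none of these 4 probes changed side.

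Whether arrays with the same replicate number share a run was not settled, since the labels do not say so. Of 84 pairs of arrays with the same number, 43 had deviations correlated above 0.1 (median 0.10, range -0.35 to 0.46), against a median of -0.049 over 168 pairs with different numbers. For pools of 1 condition, 9 of 18 pairs with the same number lay above 0.1 (median 0.12, against -0.067 for different numbers), so some pairs deviated together and others did not. With the replicate block the counts were 1 and 2, 69 and 23, 10 and 11, 27 and 19, and 0 and 4, in the order above, and among the named genes SRPK2 lost its call along the gradient. With the slide as a block they were 1 and 2, 71 and 23, 10 and 10, 27 and 19, and 0 and 4. A value at or near the array background has only a bound, which limits DDX51, SRSF1, HNRNPCL1, LSM14B, DHX34, DDX60L, RBM14, SRSF12, RBM33 and DDX31.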
